A study of Mus musculus with 12 samples.

Results

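The comparison described here asks what loss of Smad7 changes in mouse cardiac fibroblasts that are under TGF-β1 stimulation. It uses 6 of the 12 RNA-Seq libraries of the series, chosen from the sample labels and from no measured value. Their titles name 3 as TGFβ-treated Smad7KO and 3 as TGFβ-treated wild type, here called TGF-β1 Smad7-KO and TGF-β1 control. The remaining libraries are 3 unstimulated Smad7-KO and 3 unstimulated control samples. Fibroblasts came from the hearts of 12-week-old C57BL/6 mice (C57BL/6J in the methods of the study) with a floxed Smad7 gene, and at passage 2 they were infected for 48 hours, at a multiplicity of infection of 100, with an adenovirus carrying Cre recombinase (Smad7-KO) or with a control adenovirus. Both groups then received TGF-β1 at 10 ng/ml. The stimulation lasted 2 hours according to the sample characteristics but 4 hours according to the treatment protocol. The labels name GFP as the cargo of the control virus, whereas the methods of the study call it an empty virus. If the labels hold, the groups differ in GFP as well as in Cre. Control cells, titled wild type, carried the floxed alleles as well, and every library came from infected cells. Nothing states whether the 3 cultures of a group came from separate animals, so the p-values measure the spread between these cultures.

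TGF-β1 is the central growth factor of cardiac fibrosis. It binds a pair of serine/threonine kinase receptors that phosphorylate the receptor-activated Smads, which join Smad4 and enter the nucleus to drive genes for extracellular matrix, matrix cross-linking and contraction. Smad7 and its relative Smad6 are the inhibitory Smads: both are induced by TGF-β or BMP signals and restrain the receptors that induced them, Smad6 mostly on the BMP side. Besides this feedback role, Smad7 has been tied to receptor tyrosine kinases of the ErbB family, which bind EGF-like growth factors.

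The deposited tables give read counts and FPKM for 35275 genes. The 6 libraries held 20332388 to 25371321 counted reads. Levels below are CPM, counts scaled by TMM-normalized library size, which may be compared between libraries for a gene but not between genes. Differences were tested with edgeR's quasi-likelihood method on the 6 libraries over 14481 genes, with Benjamini-Hochberg adjusted p of 0.05 or less as the threshold, and log2 fold changes are Smad7-KO minus control, given ± SE over 6 libraries. At this threshold 4453 genes (30.8%) changed, of which 2281 (15.8% of those tested) were higher and 2172 (15%) were lower in Smad7-KO cells. The change was at least 2-fold for 725 of them, 262 higher and 463 lower, so large differences were more often decreases. Each list count below is to be read against these shares. The median log2 fold change over all tested genes was -0.0106. Without control replicate 3, Smad7-KO replicate 1 or Smad7-KO replicate 2, the number of genes past the threshold was 2347, 2188 and 2298. The counts of many lists also changed between analyses, some widely and others little, so list counts are given with their range over 23 alternative analyses. The groups did not overlap for 46.2% of all tested genes and for 4309 of the 4453 that changed, so separate groups add little to a call.

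A trend on gene length ran through the comparison. Of the genes past the threshold in the shortest tertile of gene models, 20.6% were higher in Smad7-KO cells, in the middle tertile 47% and in the longest tertile 74.9%. Relative to the mean of the 6 libraries, the median level of the longest tertile minus that of the shortest was 0.068, -0.466 and -0.191 log2 units in control replicates 1, 2 and 3 and 0.246, 0.321 and 0.00038 in Smad7-KO replicates 1, 2 and 3. Control replicate 2 and Smad7-KO replicate 2 stood at the opposite ends, and control replicate 1 lay above Smad7-KO replicate 3, so the groups overlapped on this measure. After each library's own trend on length was removed, the shares higher were 46.2%, 54.7% and 59.7%, and 5481 genes passed the threshold, 2987 higher (20.6% of those tested) and 2494 lower (17.2%). Of the 4453 genes, 4077 were kept in the same direction, 376 were lost and 0 reversed. What produced the trend was not tested.

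**Figure D1:**
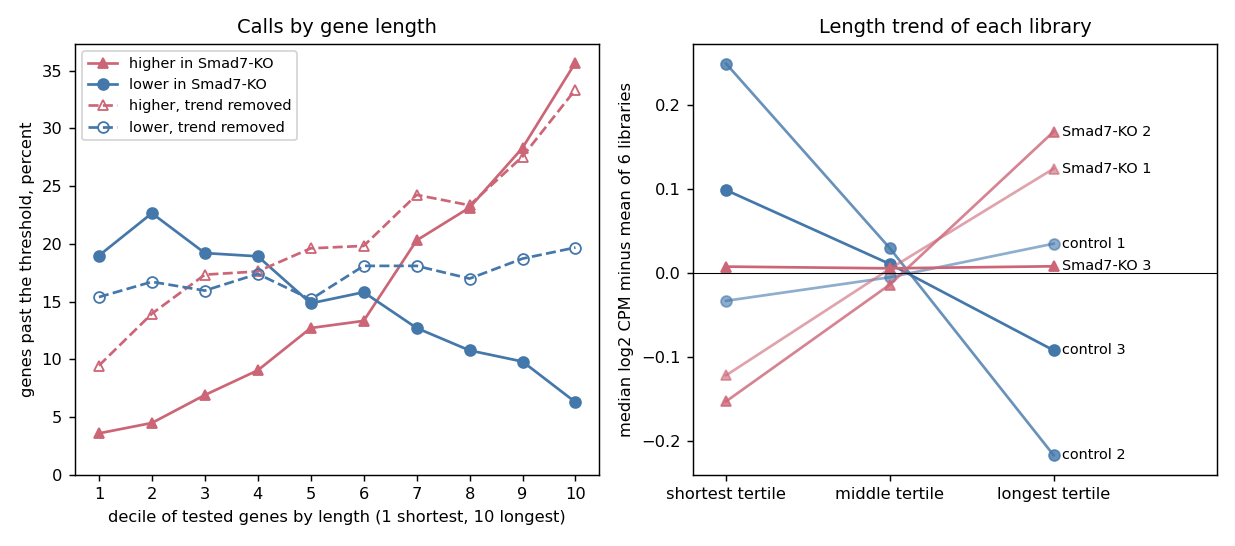
Left, percent of tested genes higher (triangles) or lower (circles) in TGF-β1 Smad7-KO cells, by decile of gene length, as tested (solid lines) and with each library's length trend removed (dashed lines); right, median log2 CPM relative to the mean of the 6 libraries for the shortest, middle and longest tertile of genes, 1 line a library. The share of higher genes climbs from 3.589% in the shortest decile to 35.7% in the longest, and from 9.455% to 33.36% with the trend removed.

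Smad7 itself, the deleted gene, was measured at 143, 151 and 141 CPM in the control libraries and 81.2, 70.1 and 79.2 CPM in the Smad7-KO libraries. All 3 Smad7-KO libraries lay below all 3 control libraries, at 52.9% of the control mean (log2 fold change -0.92 ± 0.089, edgeR adjusted p = 1.98e-04). An exact permutation test of these 6 values gave p = 0.1, two-sided, the smallest value that 3 against 3 allows. In the methods of the study, the loxP sites enclose the promoter as well as the first exon. The tables give reads per whole gene, so reads from the floxed exon and from the rest of the gene cannot be told apart here. The share of alleles that were recombined was not measured, and what the remaining reads came from was not tested. The difference kept its direction and its side of the threshold in each of the 23 alternatives, between -1.03 and -0.86.

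The 15 largest changes a direction are described for genes with a mean log2 CPM of at least 3 and separate groups; genes with fewer reads, such as Fgf10 below, could change more. Many of those that fell furthest are known from endothelium. Emcn (endomucin, ENSMUSG00000054690, chr3:137341067-137432185 in GRCm38) was at 129, 166 and 122 CPM in the control libraries and 4.05, 4.39 and 5.83 CPM in the Smad7-KO libraries (log2 fold change -4.87 ± 0.18, edgeR adjusted p = 7.49e-07). Pecam1, the platelet-endothelial adhesion molecule CD31, was at 68.7, 68.8 and 67.5 CPM in the control libraries and 4.49, 3.26 and 3.20 CPM in the Smad7-KO libraries (log2 fold change -4.22 ± 0.14, edgeR adjusted p = 6.48e-07). For both genes the highest Smad7-KO library was more than an order of magnitude below the lowest control library. Among the 15 largest decreases were 5 further genes of this kind: Myct1 (-4.60 ± 0.19), the endothelial receptor kinase Tie1 (-4.57 ± 0.23), VE-cadherin (Cdh5, -3.41 ± 0.16), the adhesion receptor Gpr116 (-3.44 ± 0.24) and P-selectin (Selp, -2.35 ± 0.20). The water channel Aqp1 fell as well (27.7, 31.0 and 26.9 CPM in the control libraries and 5.62, 3.67 and 4.37 CPM in the Smad7-KO libraries). Edn1, which encodes the vasoconstrictor peptide endothelin-1 and is both an endothelial product and a TGF-β target, was at 49.1, 54.5 and 46.7 CPM in the control libraries and 6.50, 6.84 and 5.73 CPM in the Smad7-KO libraries (log2 fold change -2.98 ± 0.12, edgeR adjusted p = 7.49e-07), with no overlap between the groups. In these bulk libraries fewer cells of a type and less RNA per cell cannot be told apart.

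The other large decreases belonged to genes of mixed function. Clu, which encodes the secreted chaperone clusterin, was at 72.5, 87.7 and 78.9 CPM in the control libraries and 13.2, 13.4 and 13.3 CPM in the Smad7-KO libraries and was among the tightest of the set (log2 fold change -2.58 ± 0.10, edgeR adjusted p = 7.49e-07). Ctla2a, an inhibitor of cathepsin-like proteases, was at 469, 621 and 482 CPM in the control libraries and 82.4, 87.6 and 110.3 CPM in the Smad7-KO libraries (log2 fold change -2.49 ± 0.15, edgeR adjusted p = 1.13e-05). Every control library of either gene was above every Smad7-KO library, a condition for naming them. Lower as well were Mest, an imprinted gene of mesodermal tissue (-3.57 ± 0.14), the ectoenzyme gene Bst1 (-2.92 ± 0.17), the matrix protein gene Vit (-2.75 ± 0.18) and the cysteine dioxygenase gene Cdo1 (-2.57 ± 0.21). All 15 kept their call with the length trend removed, which the rule for naming them required.

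Under the same limit on abundance, Cd5l stood apart among the genes that rose. It encodes a secreted protein of tissue macrophages and is a target of the liver X receptor (ENSMUSG00000015854, chr3:87357881-87371074 in GRCm38). It was at 41.9, 41.3 and 46.8 CPM in the control libraries and 249.5, 233 and 271 CPM in the Smad7-KO libraries, a 5.797-fold difference (log2 fold change 2.54 ± 0.097, edgeR adjusted p = 7.49e-07). The next gene, Iqgap2, a scaffold of the actin cytoskeleton, was at 43.9, 28.1 and 42.8 CPM in the control libraries and 139, 138 and 104 CPM in the Smad7-KO libraries (log2 fold change 1.73 ± 0.18, edgeR adjusted p = 2.82e-04). Then came Fat3 (1.60 ± 0.25), an atypical cadherin, the lysosomal trafficking regulator Lyst (1.56 ± 0.32), the DNA sensor Tlr9 (1.55 ± 0.20), the kinesin Kif13b (1.55 ± 0.29), Snx29 (1.52 ± 0.23), Stard9 (1.52 ± 0.27), the macrophage lectin Siglec1 (1.51 ± 0.27) and the phosphoinositide phosphatase Inpp4b (1.47 ± 0.32). Several of these had a wide spread among control cells: Lyst was at 57.7, 19.6 and 39.9 CPM in the control libraries and 120.4, 140.5 and 85.3 CPM in the Smad7-KO libraries, with its lowest value in control replicate 2. The last of the 15 were Col14a1, a fibril-associated collagen, Lonrf3 (1.40 ± 0.26), Cst7, a cystatin of immune cells, Hgf, the hepatocyte growth factor, and Hpse, the heparanase that trims heparan sulfate.

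Of these last genes, Col14a1 was at 66.1, 54.4 and 70.1 CPM in the control libraries and 174, 186 and 147 CPM in the Smad7-KO libraries (log2 fold change 1.41 ± 0.12, edgeR adjusted p = 1.09e-04). Hpse was at 56.2, 47.7 and 58.9 CPM in the control libraries and 146, 143 and 135 CPM in the Smad7-KO libraries (log2 fold change 1.38 ± 0.10, edgeR adjusted p = 3.87e-05). Hgf, whose protein acts on the receptor Met, was at 16.5, 9.56 and 14.2 CPM in the control libraries and 35.4, 40.4 and 29.7 CPM in the Smad7-KO libraries (log2 fold change 1.39 ± 0.19, edgeR adjusted p = 0.00113), and Cst7 at 4.61, 5.03 and 5.08 CPM in the control libraries and 11.1, 12.4 and 15.1 CPM in the Smad7-KO libraries (log2 fold change 1.39 ± 0.15, edgeR adjusted p = 4.00e-04). Separate groups were a condition for naming these genes. Lyst, Tlr9, Kif13b, Snx29, Stard9, Siglec1 and Inpp4b did not pass the threshold in an edgeR fit of all 12 libraries, where the adjusted p lay between 0.0569 for Stard9 and 0.156 for Lyst.

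**Figure D2:**
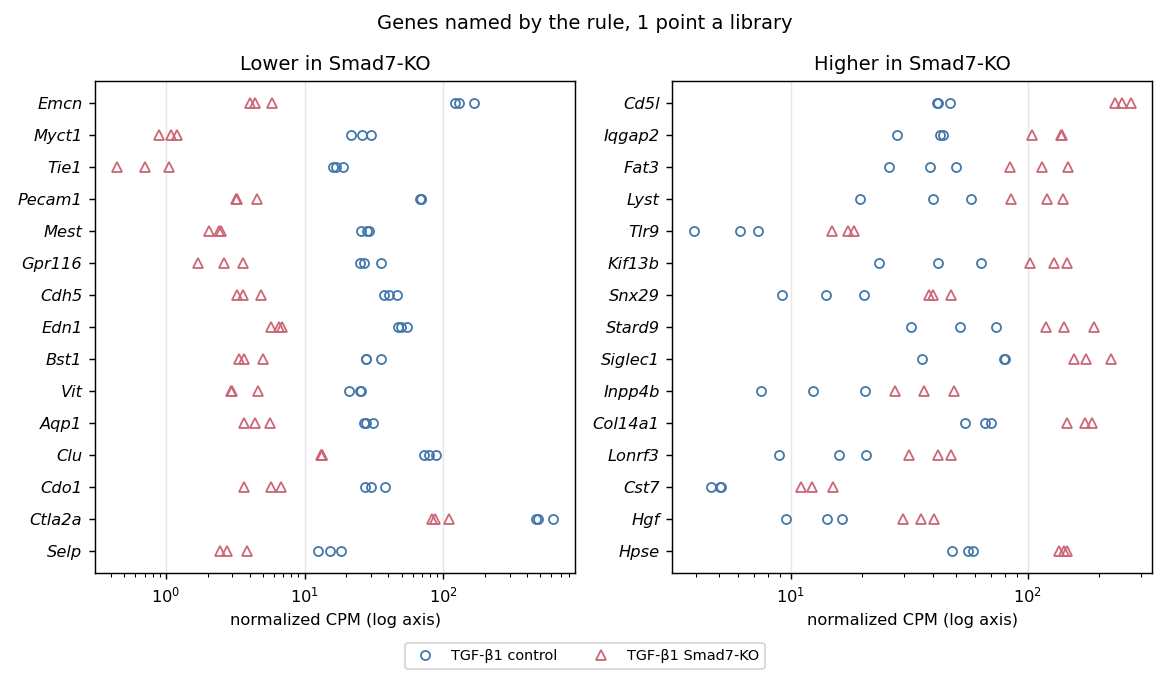
Normalized CPM on a log axis in each of the 3 TGF-β1 control (circles) and 3 TGF-β1 Smad7-KO (triangles) libraries, for the 15 genes with the largest decreases (left) and the 15 with the largest increases (right) under the naming rule. The decreases reach further than the increases, from -4.87 for Emcn to 2.54 for Cd5l on the log2 scale, and the control libraries are widely spread for genes such as Lyst, Inpp4b and Kif13b.

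The labelled cell type was checked against marker genes. Summed over 14 fibroblast markers, levels were 18800 to 21000 CPM in the control and 16600 to 18900 CPM in the Smad7-KO libraries. Summed over 20 macrophage markers, they were 18500 to 21500 CPM in the control and 26100 to 29100 CPM in the Smad7-KO libraries. Macrophage transcripts were therefore present in both groups of these fibroblast cultures, at higher levels in the Smad7-KO libraries with no overlap. The 24 endothelial markers went the other way, from 784 to 828 CPM down to 302 to 320 CPM. Smooth muscle and pericyte markers were at 458 to 520 CPM against 399 to 427 CPM, epicardial and mesothelial markers at 453 to 460 against 348 to 373 CPM, and cardiomyocyte markers at 32.1 to 35.9 against 22.7 to 25.6 CPM. Markers of lymphocytes and neutrophils were at 25.3 to 39.4 against 55.3 to 59.2 CPM, and 10 of their 18 genes, among them Cd3e and Ms4a1, had at most 3 reads in each library. Of the 4 that were tested only Csf3r, a receptor of myeloid cells, passed (0.98 ± 0.15), and it made up most of that sum, while the median of the 4 was -0.262. Whether a different share of these cells has a part in any result below was not tested.

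By gene, 17 of 20 tested endothelial markers were lower and 1 was higher, with a median of -2.75 (14 to 18 lower over the alternatives). The one that rose, the von Willebrand factor gene Vwf, was at 18.7, 14.5 and 17.6 CPM in the control libraries and 27.1, 26.3 and 24.1 CPM in the Smad7-KO libraries (log2 fold change 0.61 ± 0.12, edgeR adjusted p = 0.00551), with a log2 fold change of 0.36 once the length trend was removed. Of 18 tested macrophage markers 11 were higher and 0 lower, with a median of 0.531 (6 to 17 higher over the alternatives), and 17 were higher with the length trend removed. Cd68, a lysosomal glycoprotein of macrophages, was at 525, 574 and 618 CPM in the control libraries and 982, 939.7 and 927 CPM in the Smad7-KO libraries (log2 fold change 0.73 ± 0.090, edgeR adjusted p = 6.61e-04). The mannose receptor Mrc1 was at 704, 578 and 695 CPM in the control libraries and 1364, 1464 and 1101 CPM in the Smad7-KO libraries (log2 fold change 0.99 ± 0.13, edgeR adjusted p = 7.74e-04). Itgam, the integrin chain CD11b (1.03 ± 0.14), and Emr1, the gene of the F4/80 antigen (0.61 ± 0.10), rose as well. Clec4f and Timd4, also on the macrophage list, had at most 3 reads in each library.

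Fibroblast markers split, with 3 of 14 higher and 5 lower (2 to 3 and 3 to 8 over the alternatives). Thy1, a surface glycoprotein of fibroblasts, was at 97.2, 119.7 and 104 CPM in the control libraries and 45.2, 40.8 and 41.6 CPM in the Smad7-KO libraries (log2 fold change -1.33 ± 0.10, edgeR adjusted p = 5.54e-05). Tcf21, a transcription factor of resident cardiac fibroblasts, was at 115, 142 and 127 CPM in the control libraries and 64.4, 68.3 and 76.3 CPM in the Smad7-KO libraries (log2 fold change -0.88 ± 0.11, edgeR adjusted p = 6.37e-04). The intermediate filament gene Vim (-0.55 ± 0.11) and S100a4 (-1.0 ± 0.21) were lower too. The receptor gene Pdgfra, at 66.4, 60.6 and 58.8 CPM in the control libraries and 74.6, 92.4 and 77.5 CPM in the Smad7-KO libraries, was higher (log2 fold change 0.40 ± 0.11, edgeR adjusted p = 0.0205), though it did not pass with the length trend removed, nor without control replicate 3 or Smad7-KO replicate 2. Decorin (Dcn), also on this list, was higher by 0.37 on the log2 scale and kept its call in each of the 23 alternatives. The largest of the 3 increases, in a gene not named here, was 1.417. The fibroblast markers therefore moved in both directions within these libraries. S100a4 and Pdgfra did not pass in the 12-library fit.

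Genes of the sex chromosomes separated the groups as well. Xist, transcribed from the inactive X chromosome of females, was at 139, 74.5 and 89.8 CPM in the control libraries and 38.1, 46.4 and 33.8 CPM in the Smad7-KO libraries (log2 fold change -1.36 ± 0.21, edgeR adjusted p = 0.00198). The 4 tested Y-linked genes were all higher in Smad7-KO cells, for example Uty at 21.9, 16.6 and 16.1 CPM in the control libraries and 32.3, 34.2 and 30.7 CPM in the Smad7-KO libraries (log2 fold change 0.83 ± 0.13, edgeR adjusted p = 0.00192). Both Xist and Y-linked transcripts were thus present in each library, at different ratios in the 2 groups. The labels give no sex, and whether a different mix of animals has a part in other differences was not tested.

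**Figure D3:**
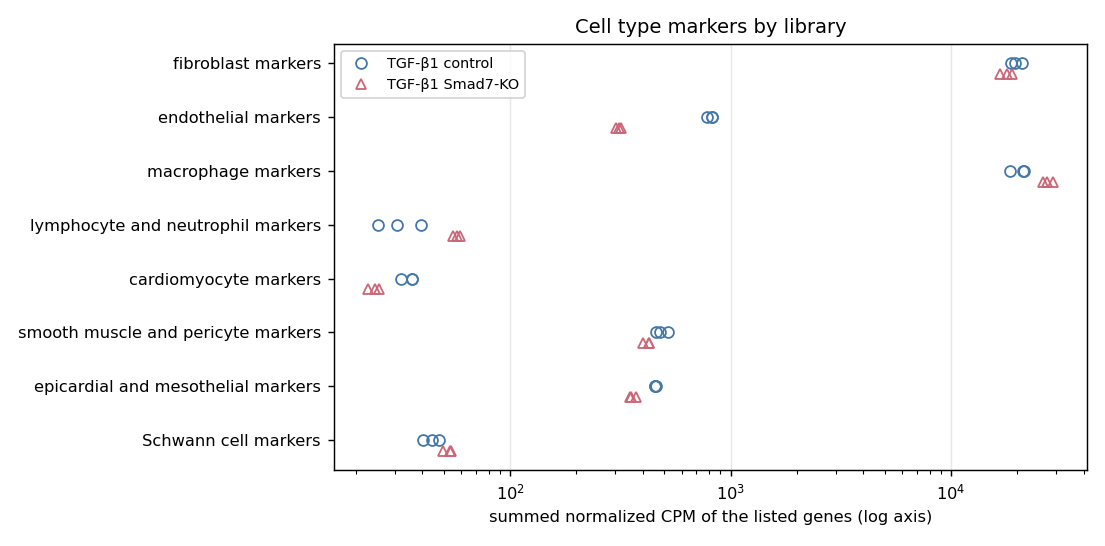
Summed normalized CPM on a log axis for each marker list, with 1 point for each TGF-β1 control (circles) and TGF-β1 Smad7-KO (triangles) library. Endothelial markers sit at 784 to 828 in control and 302 to 320 in Smad7-KO libraries, and macrophage markers at 18500 to 21500 and 26100 to 29100.

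Within the TGF-β pathway, ligands and the proteins that store and release them moved in both directions. Of 20 tested genes 5 were higher and 8 lower, with a median of -0.204 (2 to 7 higher and 4 to 9 lower over the alternatives). Tgfb1, the gene of the ligand that was added to the cultures, was at 168, 188 and 202 CPM in the control libraries and 247, 237 and 254 CPM in the Smad7-KO libraries (log2 fold change 0.40 ± 0.090, edgeR adjusted p = 0.0101). Tgfb2 went down, at 88.9, 75.5 and 79.7 CPM in the control libraries and 49.3, 51.6 and 45.2 CPM in the Smad7-KO libraries (log2 fold change -0.74 ± 0.098, edgeR adjusted p = 9.46e-04). The gene of the added ligand and that of its sister isoform thus moved apart. The latent TGF-β binding proteins, which hold the latent growth factor in the matrix, were lower: Ltbp1 was at 43.9, 40.6 and 39.5 CPM in the control libraries and 20.1, 21.2 and 22.3 CPM in the Smad7-KO libraries (log2 fold change -0.96 ± 0.094, edgeR adjusted p = 2.09e-04), and Ltbp2 (-0.63 ± 0.15), Ltbp3 (-0.49 ± 0.077) and Ltbp4 (-0.53 ± 0.094) passed as well. A pair of membrane proteins that hold latent TGF-β on cells were higher, Nrros, known from myeloid cells (0.50 ± 0.087), and Lrrc32, also called GARP (0.47 ± 0.11). Follistatin (Fst), a secreted antagonist of activins, was at 81.1, 84.1 and 75.5 CPM in the control libraries and 37.5, 35.7 and 40.0 CPM in the Smad7-KO libraries (log2 fold change -1.09 ± 0.091, edgeR adjusted p = 8.52e-05). Ltbp2, Ltbp4 and Lrrc32 did not pass in the 12-library fit, and Lrrc32 also not without Smad7-KO replicate 2.

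Receptors were divided, with 3 of 12 higher and 4 lower (0 to 5 and 1 to 5 over the alternatives). Tgfbr1, the type I receptor kinase, was at 456, 333 and 396 CPM in the control libraries and 625, 651 and 563 CPM in the Smad7-KO libraries (log2 fold change 0.63 ± 0.12, edgeR adjusted p = 0.00458). Tgfbr2, the type II receptor, was at 378, 316 and 373 CPM in the control libraries and 457, 477 and 412 CPM in the Smad7-KO libraries and nearer to the threshold (log2 fold change 0.33 ± 0.10, edgeR adjusted p = 0.0308). Endoglin (Eng), a co-receptor that is abundant on endothelium, was at 348, 357 and 355 CPM in the control libraries and 198, 190.5 and 193 CPM in the Smad7-KO libraries (log2 fold change -0.87 ± 0.075, edgeR adjusted p = 1.08e-04). The median over the 12 receptors was 0.179 and changed sign, to -0.0249, when the length trend was removed. Tgfbr1 did not pass in the 12-library fit, nor did Tgfbr2, which also lost its call without control replicate 2 or 3 and without Smad7-KO replicate 1 or 2.

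Among the Smads, the 2 that passed were both lower. Smad6 was at 158, 189 and 169 CPM in the control libraries and 74.3, 64.9 and 74.3 CPM in the Smad7-KO libraries (log2 fold change -1.27 ± 0.10, edgeR adjusted p = 5.88e-05). Smad9, a receptor-activated Smad of the BMP branch, was at 7.53, 6.13 and 6.39 CPM in the control libraries and 2.69, 3.40 and 3.24 CPM in the Smad7-KO libraries (log2 fold change -1.11 ± 0.17, edgeR adjusted p = 0.00181). In neither gene did the groups overlap. The other 5 tested members, Smad1 to Smad5, had log2 fold changes between 0.031 and 0.096, with no adjusted p below 0.4618. The promoter window of Smad6 is shown because Smad6 had the largest decrease on the list and because its start holds the palindrome GTCTAGAC, the letters of a doubled Smad-binding element, which reads the same on both strands and was found in 0.213% of 32851 RefSeq promoters of 300 bases (250 before and 50 after the annotated start). It is given 5′ to 3′ on the gene's strand from RefSeq's GRCm38.p6 promoters, with the palindrome in capitals, at chr9:64022048-64022071, minus strand.
Smad6: gccaaagtGTCTAGACtggcatat
The match overlaps the annotated transcript start, and it is a description of the letters, not of a bound site.

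Inhibitors of the pathway showed 2 of 17 higher and 4 lower (1 to 4 and 2 to 6 over the alternatives). Decorin (Dcn), a small proteoglycan that binds TGF-β, was at 533, 528 and 531 CPM in the control libraries and 686, 699.6 and 671 CPM in the Smad7-KO libraries (log2 fold change 0.37 ± 0.077, edgeR adjusted p = 0.00716). Fkbp1a, which encodes the FKBP12 protein that holds type I receptors silent, was at 253, 339 and 282 CPM in the control libraries and 175, 163 and 202 CPM in the Smad7-KO libraries (log2 fold change -0.70 ± 0.12, edgeR adjusted p = 0.00336). The remaining calls on this list were Smad6, Cd109 and Strap among those lower and Nedd4l among those higher.

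Genes of the BMP branch were lower where they changed. Of 13 tested BMP and Id genes 7 were lower and 0 higher, with a median of -0.889 beside -0.0106 for all genes. Over the alternatives 6 to 8 were lower and 0 to 1 higher. Bmp4, a ligand of this branch (ENSMUSG00000021835, chr14:46383520-46390669 in GRCm38), was at 117, 129 and 112 CPM in the control libraries and 23.1, 27.2 and 24.1 CPM in the Smad7-KO libraries (log2 fold change -2.26 ± 0.10, edgeR adjusted p = 2.21e-06). Bmp6 was at 110.3, 102 and 99.1 CPM in the control libraries and 43.8, 44.1 and 43.6 CPM in the Smad7-KO libraries (log2 fold change -1.25 ± 0.086, edgeR adjusted p = 2.80e-05). The Id genes encode helix-loop-helix proteins that lack a DNA-binding part and are classic BMP targets. Id3 was at 84.1, 121 and 100.2 CPM in the control libraries and 47.9, 43.9 and 56.8 CPM in the Smad7-KO libraries (log2 fold change -1.04 ± 0.14, edgeR adjusted p = 0.00118), with its highest level in control replicate 2. Atoh8, another BMP target, was at 28.3, 33.0 and 28.9 CPM in the control libraries and 15.2, 11.9 and 15.8 CPM in the Smad7-KO libraries (log2 fold change -1.07 ± 0.13, edgeR adjusted p = 6.08e-04). Several of these genes, Bmp4, Bmp6, Id1, Id3 and Atoh8 among them, are also expressed by endothelial cells, whose markers fell in the same libraries, and the part of those cells in the decrease was not tested.

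Known targets of TGF-β fell more often than they rose. Of 40 tested genes 16 were lower and 3 higher, with a median of -0.238 (9 to 22 lower and 1 to 5 higher over the alternatives). Connective tissue growth factor (Ctgf) was at 3070.1, 3619 and 3032 CPM in the control libraries and 1463, 1571 and 1716 CPM in the Smad7-KO libraries (log2 fold change -1.03 ± 0.11, edgeR adjusted p = 2.81e-04). Its lowest control library was well above its highest Smad7-KO library. Ankrd1, a stress-induced nuclear cofactor, was at 708, 732 and 691 CPM in the control libraries and 423, 454 and 449 CPM in the Smad7-KO libraries (log2 fold change -0.68 ± 0.080, edgeR adjusted p = 5.55e-04). Nox4, an oxidase, was at 21.3, 15.1 and 18.1 CPM in the control libraries and 12.4, 11.8 and 9.73 CPM in the Smad7-KO libraries (log2 fold change -0.68 ± 0.15, edgeR adjusted p = 0.01), and Lox, the enzyme that cross-links collagen and elastin, at 3127, 2832 and 2736 CPM in the control libraries and 2296, 2184 and 1973 CPM in the Smad7-KO libraries (log2 fold change -0.43 ± 0.097, edgeR adjusted p = 0.0105). The 3 genes that rose were Tgfbi (log2 fold change 0.45 ± 0.081, edgeR adjusted p = 0.00365), which encodes a matrix adaptor protein, Adam12 (0.87 ± 0.21), a metalloprotease, and Itga5 (0.32 ± 0.079), a fibronectin receptor chain. In the 12-library fit Lox, Adam12 and Itga5 did not pass, and without Smad7-KO replicate 1 or 2 neither Adam12 nor Itga5 did.

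The promoters of Edn1 and Ankrd1, both among the targets that fell, share a short motif and are shown for it. Both hold GGAATG, the core of the TEAD sites through which mechanical signals act, read on either strand. The motif was in 14.7% of 32851 RefSeq promoters, in 6 of 23 matched TGF-β targets and in 4 of the 9 matched targets that were lower. A target counted when any of its promoters matched, whereas the 14.7% is per promoter, so these shares are not the same measure. Windows are 5′ to 3′ on the gene's strand (RefSeq, GRCm38.p6), with GGAATG or its reverse complement CATTCC in capitals, at chr13:42301239-42301304, plus strand, for Edn1 and chr19:36119932-36119997, minus strand, for Ankrd1.
Edn1: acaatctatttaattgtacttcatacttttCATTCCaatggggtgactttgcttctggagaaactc
Ankrd1: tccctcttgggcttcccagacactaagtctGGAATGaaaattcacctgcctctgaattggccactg
The Edn1 match lies before the start that RefSeq annotates but at the start of the counted gene model, chr13:42301270. A match to 6 letters is a description, not a site or a cause.

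**Figure D4:**
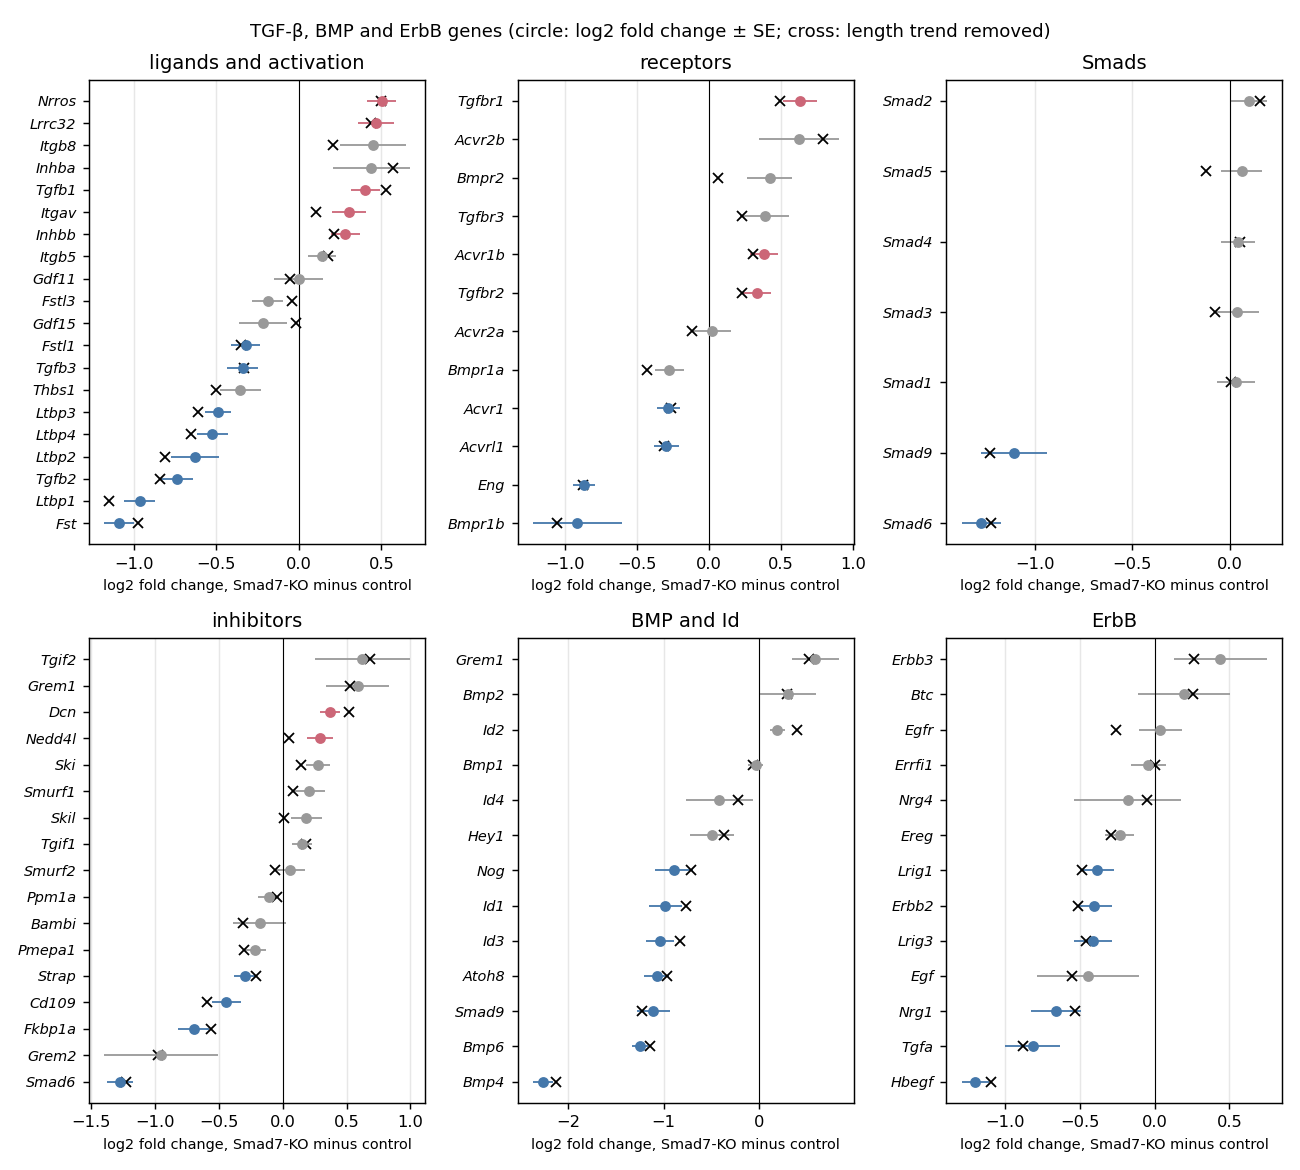
Log2 fold change (TGF-β1 Smad7-KO minus TGF-β1 control) ± SE for the tested genes of 6 lists, with genes past the threshold in red (higher) or blue (lower), others in gray, and crosses for the value with the length trend removed. The BMP and Id panel reaches from Bmp4 at -2.26 upward with 7 genes lower, and 5 of the 7 Smads sit between 0.031 and 0.096.

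Collagens that changed were lower with 1 exception. Of 17 tested fibrillar and associated collagens 7 were lower and 1, Col14a1, was higher, with a median of -0.276. With the length trend removed 14 were lower, and the range over the alternatives was 5 to 15. Col5a2, a chain of the fibril-nucleating type V collagen, was at 3281, 2935 and 2974 CPM in the control libraries and 1890.3, 2036 and 2027 CPM in the Smad7-KO libraries (log2 fold change -0.63 ± 0.090, edgeR adjusted p = 0.00131). Col16a1 was at 243, 246 and 246 CPM in the control libraries and 144, 153 and 168 CPM in the Smad7-KO libraries (log2 fold change -0.66 ± 0.085, edgeR adjusted p = 8.53e-04), and the minor fibrillar chains Col11a1 (-0.85 ± 0.13) and Col5a3 (-0.84 ± 0.14) fell as well. Col1a1, the main chain of type I collagen, was near the threshold, at 2327, 2052 and 2183 CPM in the control libraries and 1919.7, 1801 and 1697 CPM in the Smad7-KO libraries (log2 fold change -0.28 ± 0.092, edgeR adjusted p = 0.0462), and it was named after its value was seen. Its log2 fold change was -0.43 with the length trend removed. Its groups did not overlap, yet the call was lost in 10 of 23 alternatives, among them the 12-library fit and the analyses without control replicate 1 or 3 or without any 1 of the Smad7-KO replicates. The 12-library and leave-one-out analyses kept the calls for Col5a2, Col16a1, Col11a1 and Col5a3.

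Of 32 matricellular proteins and glycoproteins of the matrix 14 were lower and 6 higher (median -0.327, 11 to 19 lower and 4 to 7 higher over the alternatives). Elastin (Eln, ENSMUSG00000029675, chr5:134703781-134747241 in GRCm38) was at 141, 150.4 and 133 CPM in the control libraries and 36.4, 31.7 and 34.6 CPM in the Smad7-KO libraries (log2 fold change -2.04 ± 0.096, edgeR adjusted p = 2.21e-06). Fibulin-5 (Fbln5), needed to assemble elastic fibers, was at 380.3, 393 and 366 CPM in the control libraries and 158, 158 and 159.7 CPM in the Smad7-KO libraries (log2 fold change -1.26 ± 0.077, edgeR adjusted p = 1.40e-05). In both genes the control libraries lay at more than 2-fold the level of the Smad7-KO libraries. Fibromodulin (Fmod), which binds collagen fibrils, was at 316, 285 and 295 CPM in the control libraries and 134, 146 and 142 CPM in the Smad7-KO libraries (log2 fold change -1.09 ± 0.083, edgeR adjusted p = 4.97e-05), and Cyr61, a matricellular relative of Ctgf, at 979, 1113 and 1002 CPM in the control libraries and 489, 487 and 509.8 CPM in the Smad7-KO libraries (log2 fold change -1.06 ± 0.087, edgeR adjusted p = 7.57e-05). Osteopontin (Spp1) was the clearest increase, at 978, 995 and 1097 CPM in the control libraries and 1697, 1933 and 2129.7 CPM in the Smad7-KO libraries (log2 fold change 0.91 ± 0.11, edgeR adjusted p = 5.15e-04). Tenascin-C (Tnc, 0.70 ± 0.14), Tgfbi and Dcn were also higher, although Tnc did not pass in the 12-library fit. Spp1 is a product of macrophages as well as fibroblasts, and macrophage markers rose in the same libraries.

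Enzymes that process collagen fell in 12 of 21 cases and rose in 2 (median -0.283, 7 to 13 lower over the alternatives). The lysyl hydroxylase Plod2, whose product sets the type of collagen cross-link, was at 649, 601 and 598 CPM in the control libraries and 409, 419 and 398 CPM in the Smad7-KO libraries (log2 fold change -0.59 ± 0.081, edgeR adjusted p = 0.00108). Loxl3, a lysyl oxidase, was at 164, 149.6 and 156 CPM in the control libraries and 90.9, 101 and 97.9 CPM in the Smad7-KO libraries (log2 fold change -0.69 ± 0.084, edgeR adjusted p = 6.21e-04). The prolyl hydroxylase P4ha3 (-0.92 ± 0.11) and Tll1, a protease of procollagen (-1.55 ± 0.21), were lower too. A relative of Plod2 went the other way: Plod1 was at 186, 183 and 202 CPM in the control libraries and 284, 277 and 287 CPM in the Smad7-KO libraries (log2 fold change 0.57 ± 0.080, edgeR adjusted p = 0.00118). The procollagen N-peptidase Adamts2 was higher as well (0.41 ± 0.079), at 0.21 with the length trend removed, where leaving out control replicate 1 or 3 or Smad7-KO replicate 1 or 3 ended the call. P4ha3 and Adamts2 did not pass in the 12-library fit.

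Matrix proteases leaned upward, with 11 of 33 higher and 7 lower, while none of 11 protease inhibitors was higher and 6 were lower (medians 0.0945 and -0.381). Stromelysin-1 (Mmp3), which degrades proteoglycans and fibronectin, was at 320.3, 329 and 360.5 CPM in the control libraries and 552, 626 and 637 CPM in the Smad7-KO libraries (log2 fold change 0.85 ± 0.092, edgeR adjusted p = 3.94e-04). The collagenase Mmp8 had few reads but separate groups, at 1.64, 2.08 and 1.40 CPM in the control libraries and 4.89, 6.30 and 5.45 CPM in the Smad7-KO libraries (log2 fold change 1.69 ± 0.21, edgeR adjusted p = 6.71e-04). Mmp10 rose by a similar amount (1.40 ± 0.23). Gelatinase A (Mmp2) was lower, at 185, 199 and 192 CPM in the control libraries and 111, 117 and 112 CPM in the Smad7-KO libraries (log2 fold change -0.76 ± 0.078, edgeR adjusted p = 2.81e-04), and so was Mmp23 (-0.77 ± 0.11). On the inhibitor side, Reck, a membrane-anchored inhibitor of metalloproteases, was at 108, 91.0 and 93.1 CPM in the control libraries and 59.6, 57.1 and 50.2 CPM in the Smad7-KO libraries (log2 fold change -0.81 ± 0.11, edgeR adjusted p = 8.77e-04), and Tfpi, the tissue factor pathway inhibitor, fell by 0.38 on the log2 scale. Stromelysins and gelatinase thus moved in opposite directions. Over the alternatives 6 to 13 proteases were higher and 4 to 7 inhibitors lower.

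Basement membrane genes were near the background, with 2 of 22 higher and 3 lower, but 12 were lower once the length trend was removed (median -0.239). Their gene models are long, at a median of 6575.5 bases. Integrins and related receptors were divided, with 6 of 23 higher and 7 lower (2 to 7 and 4 to 8 over the alternatives). The laminin receptor chain Itga6 was at 161, 116 and 141 CPM in the control libraries and 245, 263 and 223 CPM in the Smad7-KO libraries (log2 fold change 0.80 ± 0.12, edgeR adjusted p = 0.00172). Another laminin receptor chain, Itga3, was at 45.4, 42.3 and 44.0 CPM in the control libraries and 23.9, 28.7 and 26.4 CPM in the Smad7-KO libraries (log2 fold change -0.74 ± 0.098, edgeR adjusted p = 9.36e-04). The syndecans Sdc2 (-0.50 ± 0.084) and Sdc4 (-0.39 ± 0.079), heparan sulfate proteoglycans of the cell surface, were both lower, Sdc4 not in the 12-library fit.

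Contractile genes of myofibroblasts were lower where they changed. Of 23 tested genes 9 were lower and 0 higher, with a median of -0.29 (2 to 14 lower and 0 to 2 higher over the alternatives). Zyxin (Zyx), a focal adhesion protein, was at 327, 369 and 342 CPM in the control libraries and 245, 248 and 241 CPM in the Smad7-KO libraries (log2 fold change -0.50 ± 0.082, edgeR adjusted p = 0.00231). Tropomyosin (Tpm1) was at 369, 442 and 381 CPM in the control libraries and 287, 283 and 289 CPM in the Smad7-KO libraries (log2 fold change -0.47 ± 0.091, edgeR adjusted p = 0.00507) and Smtn, encoding smoothelin, at 41.0, 48.8 and 48.0 CPM in the control libraries and 33.5, 30.4 and 35.3 CPM in the Smad7-KO libraries (log2 fold change -0.47 ± 0.10, edgeR adjusted p = 0.00899). Smtn lost its call without control replicate 3. Acta2, the smooth muscle actin that defines myofibroblasts, was at 577, 813 and 656 CPM in the control libraries and 571, 518 and 551 CPM in the Smad7-KO libraries and did not pass (log2 fold change -0.32 ± 0.12, edgeR adjusted p = 0.0732). It passed without control replicate 1 (-0.43) and with no filter on low counts (-0.29), and its log2 fold change was -0.18 without control replicate 2 and -0.14 with the length trend removed. It is a TGF-β target on the list above. Its 3 control libraries lay above the 3 Smad7-KO libraries by a narrow margin, 577 against 571 CPM at the closest.

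None of the tested ErbB genes was higher. Of 13 tested receptors, ligands and regulators 6 were lower and 0 higher, with a median of -0.384 (2 to 8 lower over the alternatives). Hbegf, the heparin-binding EGF-like ligand, was at 123, 120.2 and 111 CPM in the control libraries and 49.1, 50.1 and 54.9 CPM in the Smad7-KO libraries (log2 fold change -1.20 ± 0.090, edgeR adjusted p = 4.19e-05). Tgfa, another EGF-like ligand, was at 8.17, 6.01 and 6.78 CPM in the control libraries and 3.21, 4.35 and 4.37 CPM in the Smad7-KO libraries (log2 fold change -0.82 ± 0.19, edgeR adjusted p = 0.0108). Neuregulin-1 (Nrg1), the ligand of ErbB3 and ErbB4, was at 13.3, 10.1 and 10.3 CPM in the control libraries and 7.82, 7.75 and 5.73 CPM in the Smad7-KO libraries (log2 fold change -0.66 ± 0.17, edgeR adjusted p = 0.0167). All 3 ligands were lower.

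ErbB2, the receptor without a ligand of its own, was near the threshold. Erbb2 was at 17.1, 14.6 and 14.5 CPM in the control libraries and 11.2, 12.3 and 11.6 CPM in the Smad7-KO libraries (log2 fold change -0.40 ± 0.12, edgeR adjusted p = 0.0273). Its groups did not overlap, but the call was lost in 9 of 23 alternatives, including the 12-library fit and the analyses without control replicate 1 or 3 or without any 1 of the Smad7-KO replicates. Lrig1 and Lrig3, membrane proteins of which the first restrains ErbB receptors, were lower by similar amounts (-0.38 ± 0.11 and -0.41 ± 0.13), with calls that also rested on single libraries: both were lost in the 12-library fit, without control replicate 1 or 3 and without Smad7-KO replicate 1 or 2, and Lrig3 also without Smad7-KO replicate 3. Tgfa did not pass without Smad7-KO replicate 1, and Nrg1 not in the 12-library fit. The 7 members that did not pass, Egfr and Erbb3 among them, lay between -0.448 and 0.44.

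Other receptor tyrosine kinases fell in 17 of 35 cases and rose in 4, with a median of -0.342 (11 to 21 lower over the alternatives). The decreases included endothelial receptors, Tie1 and Flt1, the VEGF receptor 1, at 19.98, 16.7 and 16.3 CPM in the control libraries and 8.18, 7.93 and 6.44 CPM in the Smad7-KO libraries (log2 fold change -1.23 ± 0.14, edgeR adjusted p = 4.65e-04). Ephb3, an ephrin receptor, was at 32.6, 34.9 and 32.9 CPM in the control libraries and 17.2, 18.7 and 19.5 CPM in the Smad7-KO libraries (log2 fold change -0.86 ± 0.097, edgeR adjusted p = 4.59e-04) and Kit, the receptor of stem cell factor, at 2.64, 2.33 and 2.904 CPM in the control libraries and 0.562, 0.815 and 0.423 CPM in the Smad7-KO libraries (log2 fold change -2.12 ± 0.30, edgeR adjusted p = 0.0012). Macrophage receptors were among the 4 that rose. Csf1r, the receptor of colony-stimulating factor 1, was at 1184, 1053 and 1263 CPM in the control libraries and 1764, 1753 and 1623 CPM in the Smad7-KO libraries (log2 fold change 0.55 ± 0.096, edgeR adjusted p = 0.00304). Mertk, a receptor that binds dying cells through Gas6, was at 192, 134 and 185 CPM in the control libraries and 293, 313 and 266 CPM in the Smad7-KO libraries (log2 fold change 0.77 ± 0.14, edgeR adjusted p = 0.00322) but did not pass in the 12-library fit. The endothelial receptors Tie1 and Flt1 thus lay on the falling and the macrophage receptors Csf1r and Mertk on the rising side.

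Feedback genes of the MAPK pathway and immediate early genes fell in 10 of 31 cases and rose in 2 (median -0.234, 6 to 12 lower and 2 to 5 higher over the alternatives). Ier3, an early response gene, was at 147, 194 and 145 CPM in the control libraries and 77.8, 70.6 and 92.8 CPM in the Smad7-KO libraries (log2 fold change -1.01 ± 0.14, edgeR adjusted p = 0.00116). Dusp1, a phosphatase of stress kinases, was at 24.1, 28.4 and 25.5 CPM in the control libraries and 16.9, 15.4 and 14.99 CPM in the Smad7-KO libraries (log2 fold change -0.72 ± 0.11, edgeR adjusted p = 0.00158). The phosphatases of ERK were the 2 that rose: Dusp6 was at 82.5, 81.5 and 78.4 CPM in the control libraries and 115, 114 and 105 CPM in the Smad7-KO libraries (log2 fold change 0.46 ± 0.083, edgeR adjusted p = 0.00367) and Dusp7 at 47.4, 44.1 and 54.1 CPM in the control libraries and 82.5, 82.3 and 73.4 CPM in the Smad7-KO libraries (log2 fold change 0.71 ± 0.10, edgeR adjusted p = 0.0014). Dual-specificity phosphatases thus moved in both directions within the same libraries. The early transcription factor Egr1 was lower (-0.51 ± 0.085), but not past the threshold in the 12-library fit.

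Secreted growth factors and their binding proteins fell in 15 of 31 cases and rose in 5 (median -0.458, 13 to 15 lower over the alternatives). The brain-derived neurotrophic factor Bdnf was at 258, 267 and 248 CPM in the control libraries and 145, 139 and 150.3 CPM in the Smad7-KO libraries (log2 fold change -0.83 ± 0.079, edgeR adjusted p = 1.81e-04). Igfbp3, which binds insulin-like growth factors, was at 18.5, 22.6 and 19.2 CPM in the control libraries and 7.18, 6.70 and 6.20 CPM in the Smad7-KO libraries (log2 fold change -1.58 ± 0.13, edgeR adjusted p = 7.15e-05). Fgf10, a fibroblast growth factor of mesenchyme, was at 2.88, 2.53 and 2.95 CPM in control libraries and close to 0 in Smad7-KO libraries, at 0.0802, 0.0906 and 0.0470 CPM, which is at most 3 reads a library. On the rising side, besides Hgf, Gas6 was at 866, 925 and 966 CPM in the control libraries and 1337, 1279 and 1353 CPM in the Smad7-KO libraries (log2 fold change 0.53 ± 0.084, edgeR adjusted p = 0.00216). Igf1, expressed by both fibroblasts and macrophages, was higher (log2 fold change 0.44 ± 0.10, edgeR adjusted p = 0.0111), a call that was lost without Smad7-KO replicate 1 or 2, and stood at 0.24 with the length trend removed.

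**Figure D5:**
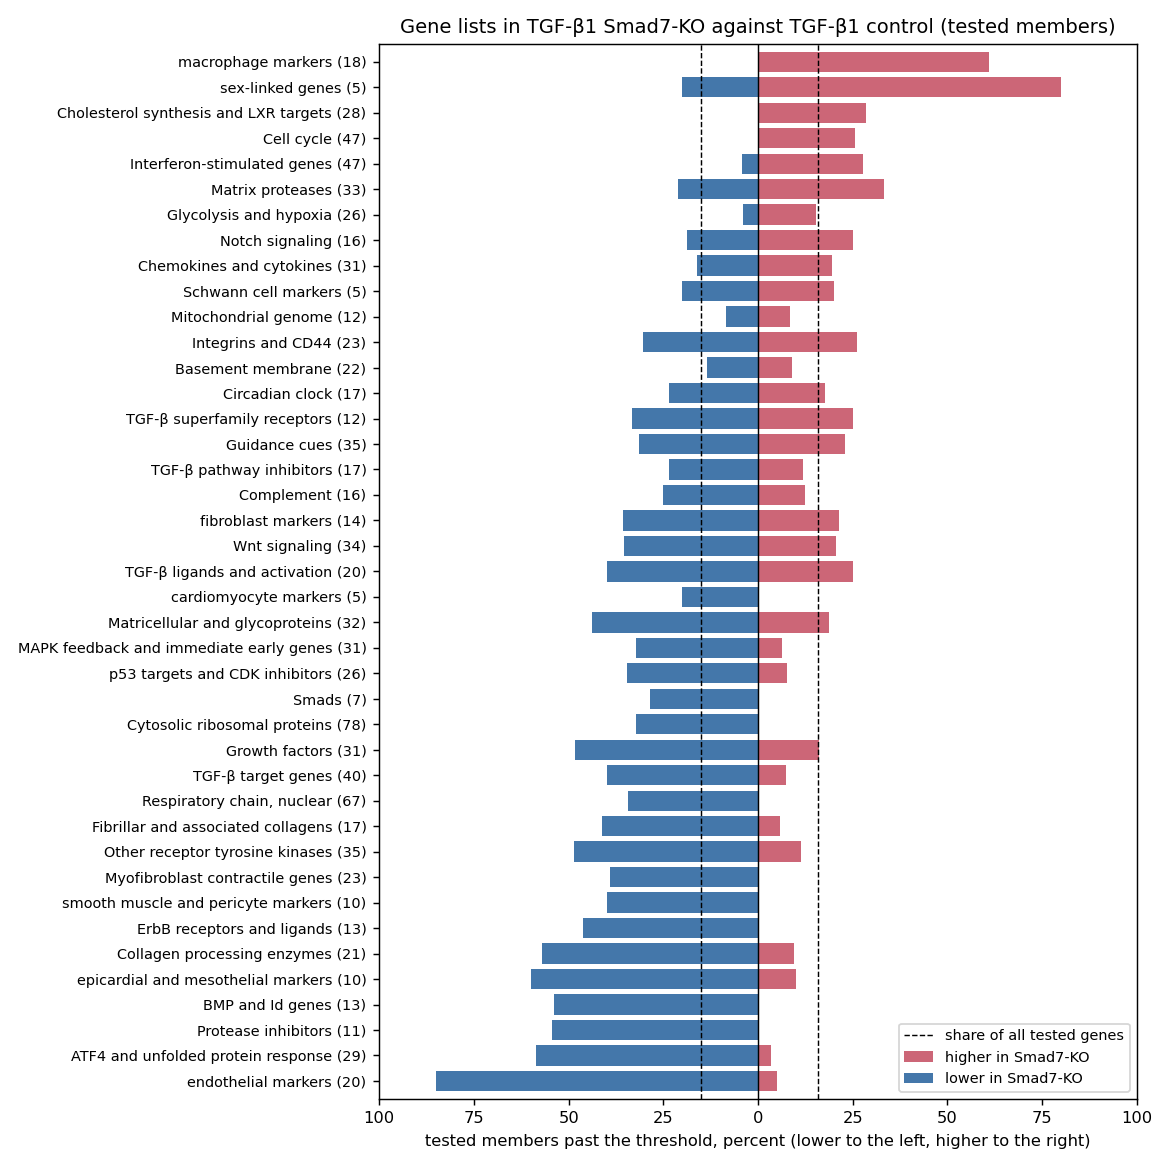
Percent of the tested members of each gene list past the threshold, lower in TGF-β1 Smad7-KO cells to the left and higher to the right, with the number of tested members in parentheses. The lymphocyte and neutrophil markers, of which only 4 were tested, are left out. Dashed lines mark the shares over all tested genes, 15.8% higher and 15% lower. Endothelial markers (85% lower) and macrophage markers (61.1% higher) lie at opposite ends.

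Interferon-stimulated genes leaned upward. Of 47 tested genes 13 were higher and 2 lower, with a median of 0.391, but the number higher ranged from 5 to 30 over the alternatives. Parp14, an ADP-ribosyltransferase, was at 65.2, 49.1 and 70.8 CPM in the control libraries and 113, 139.6 and 129 CPM in the Smad7-KO libraries (log2 fold change 1.04 ± 0.14, edgeR adjusted p = 9.62e-04). Trim30a was at 43.9, 35.0 and 52.3 CPM in the control libraries and 66.1, 78.7 and 76.1 CPM in the Smad7-KO libraries (log2 fold change 0.75 ± 0.14, edgeR adjusted p = 0.00455) and Ifi203, a DNA sensor of the same response, at 11.3, 8.26 and 13.4 CPM in the control libraries and 19.1, 22.7 and 26.5 CPM in the Smad7-KO libraries (log2 fold change 1.05 ± 0.18, edgeR adjusted p = 0.00311). In all 3 genes control replicate 2 was the lowest of the control libraries. Macrophages express many genes of this list, and their summed markers were higher in the same libraries, a link that was not tested.

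Complement genes showed 2 of 16 higher and 4 lower (median -0.0331, 2 to 8 higher and 3 to 7 lower over the alternatives). With the length trend removed 8 were higher and 5 lower, and the median was 0.0868. The 2 that rose were receptors of the anaphylatoxins, C3ar1 at 399.7, 353 and 401 CPM in the control libraries and 673, 663 and 562 CPM in the Smad7-KO libraries (log2 fold change 0.72 ± 0.10, edgeR adjusted p = 0.00118) and C5ar1 at 113, 117 and 116 CPM in the control libraries and 150.2, 150.1 and 159 CPM in the Smad7-KO libraries (log2 fold change 0.40 ± 0.077, edgeR adjusted p = 0.00477). Among the 4 that fell, Cd55, a regulator that protects cells from complement, was at 37.0, 36.4 and 33.5 CPM in the control libraries and 22.1, 21.7 and 19.5 CPM in the Smad7-KO libraries (log2 fold change -0.76 ± 0.098, edgeR adjusted p = 8.61e-04). Chemokines and cytokines were close to the background, with 6 of 31 higher and 5 lower (2 to 8 and 3 to 6 over the alternatives), and their median of -0.168 turned to 0.0622 with the length trend removed. Csf1, the ligand of the macrophage receptor Csf1r, was lower, at 1695, 1531 and 1575 CPM in the control libraries and 1059, 1203 and 1235 CPM in the Smad7-KO libraries (log2 fold change -0.46 ± 0.094, edgeR adjusted p = 0.00681), as was Cxcl12, a stromal chemokine (-0.43 ± 0.081). The receptor Csf1r and its ligand thus moved in opposite directions. The macrophage chemokine Ccl6 was higher, at 31.4, 33.9 and 33.8 CPM in the control libraries and 49.2, 50.7 and 52.5 CPM in the Smad7-KO libraries (log2 fold change 0.62 ± 0.086, edgeR adjusted p = 0.00113), and the interferon-induced Cxcl10 rose with a wide spread among the Smad7-KO libraries, at 1.60, 2.45 and 3.63 CPM in the control libraries and 6.42, 4.21 and 14.0 CPM in the Smad7-KO libraries (log2 fold change 1.69 ± 0.43, edgeR adjusted p = 0.0173), a call that was lost without control replicate 1 or 2, and with a log2 fold change of 1.07 without Smad7-KO replicate 3.

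Genes of cholesterol synthesis and LXR targets rose in 8 of 28 cases and fell in 0 (median 0.157, 4 to 14 higher and 0 to 4 lower over the alternatives). Besides Cd5l, the cholesterol exporter Abca1 was at 485, 282 and 404 CPM in the control libraries and 730.2, 886 and 629.9 CPM in the Smad7-KO libraries (log2 fold change 0.94 ± 0.19, edgeR adjusted p = 0.00604). Hmgcs1, an early enzyme of cholesterol synthesis, was at 59.5, 64.7 and 61.3 CPM in the control libraries and 96.7, 83.7 and 81.2 CPM in the Smad7-KO libraries (log2 fold change 0.50 ± 0.096, edgeR adjusted p = 0.00531). The first is a target of LXR and the second of SREBP, so members of both arms are among the 8. With the length trend removed, 13 members of the list were higher and 4 lower.

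In the main analysis, cell cycle genes were higher where they changed. Of 47 tested cell cycle genes 12 were higher and 0 lower, with a median of 0.193 (4 to 18 higher and 0 to 3 lower over the alternatives). With the length trend removed 18 were higher and 2 lower. Mki67, the gene of the Ki-67 antigen of cycling cells, was at 18.3, 17.8 and 21.7 CPM in the control libraries and 45.6, 47.3 and 36.6 CPM in the Smad7-KO libraries (log2 fold change 1.16 ± 0.13, edgeR adjusted p = 3.94e-04). Mcm3, part of the replicative helicase, was at 28.6, 34.0 and 30.9 CPM in the control libraries and 46.3, 44.9 and 44.8 CPM in the Smad7-KO libraries (log2 fold change 0.54 ± 0.094, edgeR adjusted p = 0.00317), and topoisomerase Top2a at 26.8, 28.3 and 25.6 CPM in the control libraries and 41.0, 40.0 and 33.6 CPM in the Smad7-KO libraries (log2 fold change 0.51 ± 0.10, edgeR adjusted p = 0.00718). The gene model of Mki67 is long, at 10075 bases, and its log2 fold change was 0.85 with the length trend removed. All 3 kept their calls in each of the 23 alternatives. Which cells of the culture expressed them was not measured.

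Targets of p53 and inhibitors of cyclin-dependent kinases fell in 9 of 26 cases and rose in 2 (median -0.165, 6 to 12 lower and 1 to 4 higher over the alternatives). Perp, a membrane protein of the p53 response, was at 13.1, 15.9 and 11.6 CPM in the control libraries and 3.81, 2.99 and 4.79 CPM in the Smad7-KO libraries (log2 fold change -1.81 ± 0.19, edgeR adjusted p = 3.45e-04). The death receptor gene Fas was at 60.2, 75.7 and 63.4 CPM in the control libraries and 39.4, 37.5 and 43.5 CPM in the Smad7-KO libraries (log2 fold change -0.73 ± 0.11, edgeR adjusted p = 0.00169), and Cdkn2b, which encodes the TGF-β-inducible inhibitor p15, at 43.5, 56.9 and 46.8 CPM in the control libraries and 30.4, 23.4 and 30.9 CPM in the Smad7-KO libraries (log2 fold change -0.80 ± 0.14, edgeR adjusted p = 0.00311). Sesn1 was higher, at 81.6, 88.1 and 92.6 CPM in the control libraries and 129.9, 124 and 124 CPM in the Smad7-KO libraries (log2 fold change 0.53 ± 0.084, edgeR adjusted p = 0.00214).

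Genes of the amino acid and unfolded protein responses were mostly lower. Of 29 tested genes 17 were lower and 1 higher, with a median of -0.445, and 12 to 20 were lower over the alternatives, 19 with the length trend removed. ATF4 is the transcription factor that turns on amino acid synthesis and stress genes when translation is restrained, and ATF6 and XBP1 serve the endoplasmic reticulum. Chac1, an enzyme that degrades glutathione, was at 22.6, 25.2 and 23.2 CPM in the control libraries and 6.42, 9.47 and 10.2 CPM in the Smad7-KO libraries (log2 fold change -1.45 ± 0.16, edgeR adjusted p = 4.53e-04). Pycr1, which makes proline, an amino acid abundant in collagen, was at 31.3, 32.0 and 32.9 CPM in the control libraries and 17.3, 19.2 and 18.1 CPM in the Smad7-KO libraries (log2 fold change -0.82 ± 0.094, edgeR adjusted p = 5.04e-04). Trib3, a pseudokinase, was at 22.2, 30.4 and 26.0 CPM in the control libraries and 12.2, 13.9 and 13.8 CPM in the Smad7-KO libraries (log2 fold change -0.98 ± 0.13, edgeR adjusted p = 0.00106), and the transcription factor Atf5 at 308, 372 and 326 CPM in the control libraries and 185, 180.3 and 215 CPM in the Smad7-KO libraries (log2 fold change -0.79 ± 0.10, edgeR adjusted p = 9.07e-04). The single member that rose was Edem1, a lectin that sorts misfolded glycoproteins, at 166, 153 and 159 CPM in the control libraries and 208, 218 and 203 CPM in the Smad7-KO libraries (log2 fold change 0.40 ± 0.079, edgeR adjusted p = 0.00601), and at a log2 fold change of 0.24 with the length trend removed.

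The promoters of 3 of these 4 genes hold the composite C/EBP-ATF element bound by ATF4, searched as TGATGNAA on both strands. The motif was in 3.97% of 32851 RefSeq promoters of the same length, in 7 of 27 matched members of the list and in 5 of the 15 matched members that were lower. A member counted when any of its promoters matched, whereas the 3.97% is per promoter, so these shares are not the same measure. The windows are shown 5′ to 3′ on the gene's strand (RefSeq, GRCm38.p6) with the match in capitals, since these members are among the named decreases of the list. They lie at chr2:119351019-119351086, plus strand, for Chac1, chr11:120643814-120643881, minus strand, for Pycr1 and chr2:152344031-152344054, minus strand, for Trib3, where the match lies after the start that RefSeq annotates but before the start of the gene model in the count tables.
Chac1: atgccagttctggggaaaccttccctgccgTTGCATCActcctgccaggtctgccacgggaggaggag
Pycr1: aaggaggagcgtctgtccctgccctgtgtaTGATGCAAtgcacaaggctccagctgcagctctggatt
Trib3: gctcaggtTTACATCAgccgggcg
The list contains known targets of ATF4, so holding the motif follows in part from how its members were chosen, and a match is not evidence of binding in these cells.

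Lists of short genes had negative medians, and the counts of the larger ones varied widely between the alternative analyses. Of 78 ribosomal protein genes 25 were lower and 0 higher (median -0.425, median gene model 929 bases), but the number lower lay anywhere between 0 and 73 over the alternatives and was 20 with the length trend removed. Of 67 nuclear genes of the respiratory chain 23 were lower and 0 higher (median -0.424), between 0 and 55 over the alternatives and 18 with the length trend removed. No statement on translation or respiration can rest on these counts. Glycolytic and hypoxia genes were close to the background, with 4 of 26 higher and 1 lower, and so were the 12 genes of the mitochondrial genome, with 1 higher and 1 lower.

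Developmental pathways moved in both directions. Of 34 Wnt genes 7 were higher and 12 lower (3 to 9 and 8 to 15 over the alternatives), and of 16 Notch genes 4 were higher and 3 lower (0 to 5 and 3 to 6). Of 35 guidance cues and receptors 8 were higher and 11 lower (4 to 10 and 9 to 14), and of 17 circadian genes 3 were higher and 4 lower (0 to 6 and 1 to 4). A pair of secreted Wnt antagonists of one family moved in opposite directions: Sfrp1 was at 369.6, 292 and 348 CPM in the control libraries and 567, 605 and 495 CPM in the Smad7-KO libraries (log2 fold change 0.72 ± 0.11, edgeR adjusted p = 0.00196) and Sfrp2 at 8.73, 12.0 and 11.3 CPM in the control libraries and 5.01, 3.44 and 4.04 CPM in the Smad7-KO libraries (log2 fold change -1.35 ± 0.18, edgeR adjusted p = 0.00109). The receptor Notch1 was at 54.0, 27.6 and 43.1 CPM in the control libraries and 91.6, 97.3 and 86.6 CPM in the Smad7-KO libraries (log2 fold change 1.14 ± 0.20, edgeR adjusted p = 0.00304), while Hes1, a target of Notch, was at 27.4, 35.4 and 31.2 CPM in the control libraries and 12.7, 10.46 and 12.8 CPM in the Smad7-KO libraries (log2 fold change -1.39 ± 0.13, edgeR adjusted p = 1.75e-04). The receptor and its target thus moved apart, though Notch1 did not pass in the 12-library fit. Plxnd1, a semaphorin receptor, was higher (1.09 ± 0.13) and Sema3f, a secreted semaphorin, lower (-1.26 ± 0.084).

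Whether a difference was particular to stimulated cells was tested as an interaction over all 12 libraries. Of 15150 genes 3 passed the threshold, and 392 had an unadjusted p under 0.05. Without unstimulated control replicate 3, 6 passed and 2975 had an unadjusted p under 0.05. With DESeq2 14 genes passed, and when libraries were left out in turn between 0 and 6. For the members described above, the log2 fold changes in unstimulated cells are therefore given only side by side. Smad7 was at -1.34 in unstimulated and -0.92 in stimulated cells, Smad6 at -2.08 and -1.27, Id3 at -2.39 and -1.04, and Ctgf at -1.51 and -1.03. Edn1 was at -2.77 and -2.98, Cd5l at 2.36 and 2.54, Eln at -2.30 and -2.04, and Hbegf at -1.25 and -1.20. Direction was the same in both states for each of these 8 genes, and no interaction of theirs passed the threshold, which does not show that their changes were equal. The unstimulated controls spread more than any other group, with a biological coefficient of variation of 0.33 against 0.136 for the TGF-β1 controls, 0.0528 for unstimulated Smad7-KO and 0.0991 for TGF-β1 Smad7-KO cells.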

How the data were processed

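Poly-A RNA from 12 cultures was sequenced, and per the labels the authors' processing named CASAVA, TopHat2 2.0, HTSeq 0.6.1 and Cufflinks 2.1.1 with the GRCm38.p6 (mm10) build. The deposited tables hold raw read counts per gene and FPKM values made by the authors, with the gene length used. In a check, 423300 of 423300 FPKM values equalled count over length and total within 1% or 0.005. Whether reads were counted by strand is not given in the sources used here.

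From the counts, differences were tested in R 4.3.3 with edgeR 4.0.16 (TMM, filterByExpr with a minimum count of 10, robust quasi-likelihood fit, Benjamini-Hochberg over all tested genes, threshold 0.05) on the 6 TGF-β1 libraries, since the spread of the unstimulated controls would otherwise enter. The 6 libraries were chosen for the fit after an earlier fit of all 12 had shown that spread. The interaction used all 12. Alternatives were DESeq2 1.42.0, limma 3.58.1 on log2(FPKM + 1) or log2(FPKM + 0.1), other filters and scalings, a replicate block, each library left out and an offset from a loess trend (span 0.3) of each library on log2 gene length. The members and the 42 gene lists were chosen with earlier results of these data known. Named genes were Smad7, list members with the smallest p, at most 4 a direction (any member for the TGF-β, Smad and ErbB lists), and the 15 largest changes a direction among genes past the threshold with mean log2 CPM of at least 3, separate groups, and the same call with the length trend removed (3094 genes qualified). Some named genes are not reported here. In the lists, 1001 of 1100 entries were tested and 9 symbols were matched through a RefSeq synonym. No 2 libraries of a group held identical counts. The script was tested on simulated data. A count of 3 reads or fewer was treated as the floor, and precision reflects counting error and 3 cultures a group.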

Additional observations from a re-analysis of the deposited data

Results flagged for a closer look

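The effect of Smad7 loss differed between stimulated and unstimulated cells for 3 of 15150 genes in the edgeR interaction test, and these 3 genes, which the naming rule does not cover, are singled out on the basis of their values. Mcam, a cell adhesion molecule of pericytes and endothelium, had an interaction of 1.558 on the log2 scale (edgeR adjusted p = 0.0115): in unstimulated cells the control libraries held 41.4, 32.1 and 42.1 CPM and the Smad7-KO libraries 8.97, 9.19 and 8.16 CPM, and under TGF-β1 the control libraries held 116, 106 and 109 CPM and the Smad7-KO libraries 74.9, 70.9 and 75.9 CPM. The decrease was thus larger without TGF-β1. For F11r, a junctional adhesion molecule, the interaction was 1.231 (edgeR adjusted p = 0.0317), with a log2 fold change of -1.35 in unstimulated and -0.12 in stimulated cells. For Gcnt2, a glycosyltransferase, it was 1.095 (edgeR adjusted p = 0.0439), with -0.45 and 0.65. The sign of the change in Gcnt2 thus differed between the states.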

How the results depend on the processing

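The number of genes that differed fell from 4453 to 1962 in an edgeR fit of all 12 libraries, to 2793 with DESeq2 on 12 libraries and to 2571 with limma on log2(FPKM + 1) without a filter, and lay between 2188 and 5917 when libraries were left out in turn, with 2188, 2298 and 2347 without Smad7-KO replicate 1, Smad7-KO replicate 2 and control replicate 3. The split into higher and lower genes differed in the limma analyses, which change the unit, the scaling, the test and the genes tested together: 51.2% of the calls were higher in the main analysis, 41.3% with limma on log2(FPKM + 1), 41.1% with a pseudocount of 0.1 and 37.6% without a filter. The split moved in the 12-library edgeR fit as well, to 44.1% higher. Of the 1962 calls of that fit, 1935 were shared with the main analysis in the same direction. The difference in the share of higher genes between the longest and the shortest tertile of gene length, 54.3 percentage points, was 42.4 in the 12-library fit and 13.5 with the length trend removed, with or without a replicate block, and 43.1 to 66.4 with libraries left out in turn. With both the trend removed and a library left out, analyses added after seeing the data, it was 11.1, 11.5, 13.3, 14.7, 15.9 or 16.9. Smad7 kept its call throughout.

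The interaction count of 3 became 14 with DESeq2 and 8 with the length trend removed, lay between 0 and 6 with libraries left out in turn, and was 0 with a replicate block, where 340 genes had an unadjusted p under 0.05. It was 0 without unstimulated control replicate 1, TGF-β1 control replicate 2 or 3 or any 1 of the 6 Smad7-KO replicates (308 to 414 genes at an unadjusted p under 0.05), 1 without TGF-β1 control replicate 1 and 6 without unstimulated control replicate 3, where 2975 genes had an unadjusted p under 0.05. The cause of these shifts was not tested. Deviations of same-numbered control and Smad7-KO libraries, with the length trend left in, correlated at 0.0858, -0.252 and 0.0089. The numbers were not taken to pair the samples. These correlations cannot show that the cultures were unpaired, because the 2 libraries numbered 2 stood at opposite ends of the length trend. With a replicate block, 3648 genes passed (1890 higher, 1758 lower). Of 158 named genes past the threshold, 28 did not pass in the 12-library fit and 5 with the block, and 0 changed direction. Genes with at most 3 reads in each library, such as 10 of the 18 lymphocyte and neutrophil markers, allow no comparison at this depth.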

Other observations

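Markers of 2 further cell types that could be in the cultures were examined as well. Of 10 tested epicardial and mesothelial markers 6 were lower and 1 higher, with a median of -0.603. The uroplakin Upk1b was at 71.5, 84.6 and 76.3 CPM in the control libraries and 40.3, 36.7 and 38.0 CPM in the Smad7-KO libraries (log2 fold change -1.01 ± 0.096, edgeR adjusted p = 1.73e-04), and Upk3b, a marker of mesothelium, at 152, 167 and 169 CPM in the control libraries and 112, 101 and 107 CPM in the Smad7-KO libraries (log2 fold change -0.61 ± 0.085, edgeR adjusted p = 0.00118). Among the 5 tested Schwann cell markers 1 was lower and 1 higher, and the lower one, S100b, was at 7.73, 9.73 and 7.50 CPM in the control libraries and 1.52, 2.08 and 1.88 CPM in the Smad7-KO libraries (log2 fold change -2.19 ± 0.19, edgeR adjusted p = 1.12e-04). The summed Schwann cell markers were at 40.5 to 47.7 CPM in the control and 49.7 to 54.2 CPM in the Smad7-KO libraries. Mbp, the 1 gene of the list that was higher, carried most of that sum but did not pass in the 12-library fit, and the median of the 5 tested genes was -0.26.

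Within glycolysis, Hk2, which encodes the hexokinase of proliferating and stimulated cells, was at 104, 84.4 and 94.6 CPM in the control libraries and 153, 159 and 135 CPM in the Smad7-KO libraries (log2 fold change 0.66 ± 0.10, edgeR adjusted p = 0.00198), and the aldolase Aldoc at 4.77, 4.01 and 5.52 CPM in the control libraries and 8.66, 8.56 and 9.73 CPM in the Smad7-KO libraries (log2 fold change 0.92 ± 0.16, edgeR adjusted p = 0.00294). The groups did not overlap in either gene, while 21 of the 26 tested members of this list did not pass.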
